A study of Mus musculus with 12 samples.

Results

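Microglial exosomes collected 42 days after repetitive mild traumatic brain injury (rmTBI) were compared with those collected at 14 days post-injury (DPI), the chronic against the sub-acute phase. All arrays of both groups were taken, 3 at 42 DPI and 3 at 14 DPI, which are 6 of the 12 arrays of the series; the others are sham and 3 DPI. The groups were adult male C57BL/6 mice given 4 closed-head impacts at a 48-h interval, and by the labels they differ in the time after injury alone. The comparison asks how the miRNA content of these vesicles differs between the weeks after injury and the later phase in which the model was designed to show neurodegeneration. It was made over 1881 mouse miRNAs on the array, of which 485 were tested, those detected on each array of some group in the series.

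Exosomes are small vesicles that cells release and that carry proteins and RNA to other cells. Microglia are the resident immune cells of the brain, and here their exosomes were pulled down from dissociated brain tissue with an antibody to CD11b, a surface protein of microglia that other myeloid cells also carry. The labels give the tissue as cerebrum, and nothing in the sources says whether a replicate was 1 animal or a pool, so p-values measure the spread between these samples, which may be technical. A miRNA is a short RNA that lowers the output of messenger RNAs that pair with its seed, bases 2 to 8 from its 5′ end, and miRNAs that share a seed are thought to share targets. Many come from polycistronic clusters, such as the imprinted Dlk1-Dio3 cluster, which is active in neurons, and the large rodent cluster within an intron of Sfmbt2. Mirtrons are spliced out as short introns rather than cut from a long primary transcript by Drosha.

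No miRNA passed the test between 42 and 14 DPI. Of 485 tested, 0 had an adjusted p under 0.05 in limma with Benjamini-Hochberg adjustment (0%), and the lowest adjusted p was 0.127, for miR-5100. Before adjustment 54 had a p under 0.05, of which 52 were lower at 42 DPI (10.7%) and 2 were higher (0.412%). With 14 DPI replicate 1 left out, 0 passed and 23 had an unadjusted p under 0.05. "Lower" and "higher" below therefore describe measured means, none of which was called. The lower side held miR-3473a, b, e and f, the miR-466, miR-467 and miR-669 names, and many GC-rich miRNAs with late names. The higher side held well-known brain miRNAs such as miR-34a-5p, miR-30a-5p and miR-21a-5p, by up to 0.54 on the log2 scale among those detected on all 6 arrays whose groups did not overlap.

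The mature sequences of miRNAs chosen for a low p among those detected on all 6 arrays with groups that do not overlap are given first, because the 2 sides differ in base composition. They are RefSeq sequences on GRCm38.p6, 5′ to 3′, with the seed in capitals. RefSeq sequences were matched for 418 of the 485 tested miRNAs. These were lower at 42 DPI:
miR-5100: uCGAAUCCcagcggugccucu
miR-3963: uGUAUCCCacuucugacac
miR-5119: cAUCUCAUccuggggcugg
miR-344i: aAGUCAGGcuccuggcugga
miR-296-5p: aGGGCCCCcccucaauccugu
miR-3620-3p: cUGCUCAGccccgcccacccca
miR-7671-3p: aAGCGGGCaggcggagaaccac
The miR-3473 names are set side by side because 4 of the 5 share a run of bases, and b and e also share a seed:
miR-3473a: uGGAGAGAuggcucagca
miR-3473b: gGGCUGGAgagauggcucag
miR-3473e: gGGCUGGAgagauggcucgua
miR-3473f: cAAAUAGGacuggagagaug
miR-3473g: cAAAAGUGaggcuggggaga
Of the miR-466 and miR-467 names, these 3 are shown for their common repeat:
miR-466i-3p: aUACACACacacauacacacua
miR-466q: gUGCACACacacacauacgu
miR-467f: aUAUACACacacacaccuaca
These were higher at 42 DPI:
miR-34a-5p: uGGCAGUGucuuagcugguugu
miR-30a-5p: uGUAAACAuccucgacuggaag
miR-30e-5p: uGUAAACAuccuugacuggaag
miR-29c-5p: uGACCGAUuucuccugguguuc
miR-21a-5p: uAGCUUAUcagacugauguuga
miR-301a-3p: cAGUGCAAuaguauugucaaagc
miR-376a-5p: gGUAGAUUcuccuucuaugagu
miR-488-3p: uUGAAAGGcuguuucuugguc

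Both sets of arrays lay on 1 slide, but the 42 DPI arrays were brighter. The 75th percentile of intensity over the 230 miRNAs detected on all 12 arrays was 588, 1173 and 1116 scanner units in 14 DPI replicates 1, 2 and 3, and 2936, 1385 and 1858 in those of 42 DPI. The groups did not overlap, with a ratio of means of 2.15 and an exact permutation p of 0.1, two-sided, the lowest that 3 against 3 arrays allow. The median background was 28.7 ± 0.58 (SD, n = 3) and 30.5 ± 0.50 units, also without overlap (exact permutation p of 0.1). More miRNAs were detected at 42 DPI (579, 490 and 546) than at 14 DPI (408, 469 and 474), a difference of 88 with the same exact permutation p of 0.1. Replicates 1 and 2 of 14 DPI lay in row 1 of the slide, and replicate 3 lay in row 2 with all arrays of 42 DPI. The effects of brightness, of slide row and of the day of collection on a level cannot be told apart here.

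**Figure D1:**
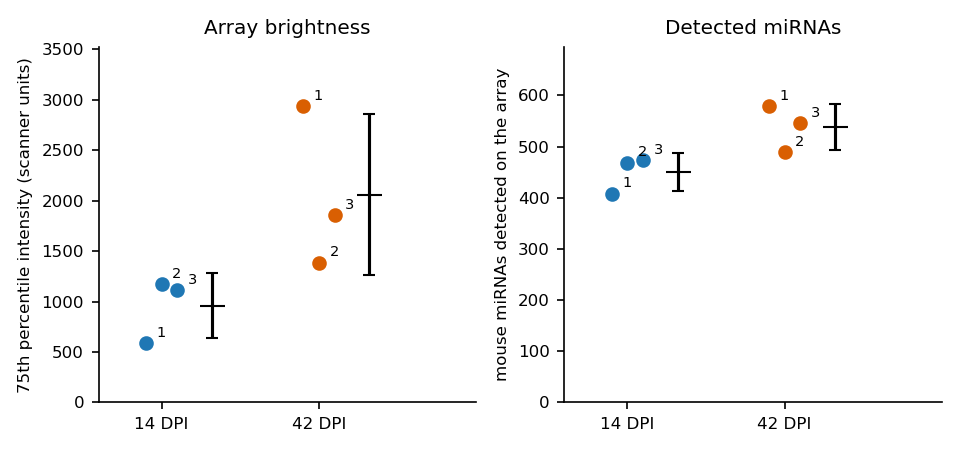
The 75th percentile of intensity (left, scanner units) and the number of detected mouse miRNAs (right) on each array of 14 DPI (blue) and 42 DPI (orange), with replicate numbers. Black marks are means ± SD (n = 3). All 3 arrays of 42 DPI lie above all 3 of 14 DPI in both panels.

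Replicate 1 of 14 DPI stood apart from the other arrays. Over the 485 miRNAs its levels correlated with those of replicates 2 and 3 at r = 0.88 and 0.87, while these 2 correlated with each other at 0.996 and with the 3 arrays of 42 DPI at 0.985 to 0.995. The median SD of a miRNA's log2 level was 0.50 at 14 DPI and 0.10 at 42 DPI. Without scaling, 241 of 485 miRNAs were brighter on every 42 DPI array than on every 14 DPI array (49.7%) and 3 were dimmer on every one (0.619%). The levels below are log2 intensities relative to each array's own 75th percentile, so 0 is that percentile. On this scale 10 of 485 were higher on every 42 DPI array (2.06%) and 29.3% were lower on every one. Among the 366 detected on all 6 arrays, 8 were higher in this sense (2.19%) and 34.4% lower. The median difference over all tested miRNAs was −0.11 with scaling and 0.87 without. With scaling, 267 of the 485 differences were below 0 and 215 above. Where a result turns on them, the unscaled intensity and the value without 14 DPI replicate 1 are given beside it.

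miR-3473f, miR-3473a and miR-3473b had the 3 lowest differences of all 485 once 14 DPI replicate 1 was left out (−1.05, −0.97 and −0.97). The level of miR-3473b was 4.48, 3.78 and 3.48 on the 3 arrays of 14 DPI, and 2.62, 2.73 and 2.63 on those of 42 DPI. All arrays of 42 DPI were lower. Within 42 DPI the brightest array was the lowest and the dimmest the highest, and within 14 DPI the dimmest was the highest. The difference was −1.25 (SE 0.35, 95% interval −2.04 to −0.47, limma adjusted p = 0.350), and −0.97 without 14 DPI replicate 1. The level of miR-3473a was −0.06, −0.75 and −1.03 at 14 DPI against −1.90, −1.75 and −1.94 at 42 DPI, a difference of −1.25 (SE 0.33). The level of miR-3473f was −2.25, −2.81 and −3.36 against −4.42, −3.91 and −4.08, a difference of −1.33 (SE 0.38). The groups did not overlap for any of these 3 miRNAs. Without 14 DPI replicate 1, miR-3473f (−1.05) was the one miRNA of the 485 with a difference over 2-fold. The miR-3473e level was also lower (−1.10, SE 0.44, and −0.71 without 14 DPI replicate 1), with 2 of its 3 values at 42 DPI at the floor, the common lower limit set for all arrays. The miR-3473g level was not separated, at −0.81, −1.22 and −1.01 against −1.33, −1.18 and −1.09 (−0.18, interval −0.93 to 0.56; −0.08 without that array).

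miR-3473a, b, e and f share the run UGGAGAGAUG, which miR-3473g lacks. It was searched as written on the strand of the mature miRNA. The same 4 miRNAs were the ones to hold it among the 418 tested miRNAs with a sequence and among all 1679 mature sequences (0.238%). Whether their probes pair with each other's miRNAs was not tested. The genes lie apart in the genome, miR-3473a at chrX:162874920-162874937 on the minus strand and miR-3473b at chr10:41670774-41670793 on the plus strand. In scanner units miR-3473a and miR-3473b were close to level, whereas miR-3473g was brighter, from 464 to 884, with a ratio of 1.91 beside a median of 1.84 for all tested. The mean intensity of miR-3473b was 13874 at 14 DPI and 12893 at 42 DPI, and that of miR-3473a was 602 and 561. Mean scaled levels of miR-3473b in sham, 3, 14 and 42 DPI were 4.24, 3.57, 3.91 and 2.66, so 42 DPI had the lowest mean of the 4 groups. Single arrays of 3 DPI were at 4.10, 2.78 and 3.85, so 1 of them lay next to the 42 DPI values of 2.62 to 2.73.

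miR-5100 had the lowest p of all. Its level was 3.40, 2.98 and 2.98 at 14 DPI and 1.79, 2.40 and 2.01 at 42 DPI, with no overlap. The difference was −1.05 (SE 0.18, interval −1.46 to −0.64, limma adjusted p = 0.127) and −0.91 without 14 DPI replicate 1. Its unscaled intensity was 8070 against 8318. In sham and 3 DPI the level was 1.98 and 1.49, so 42 DPI (2.07) lay near sham and 14 DPI (3.12) above both. miR-3963 had the same order, with 3.99 in sham, 3.77 at 3 DPI, 5.28 at 14 DPI and 4.44 at 42 DPI. On single arrays miR-3963 was 5.54, 5.15 and 5.14 at 14 DPI against 4.14, 4.77 and 4.41 at 42 DPI, a difference of −0.84 (SE 0.21, adjusted p = 0.350 in limma). Sham and 1 array of 3 DPI lay on another slide, so these 4-group orders also cross slides.

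The lower side is described by the 12 miRNAs of lowest p among those detected on all 6 arrays whose groups do not overlap. Those not yet given had smaller or dimmer signals. miR-5119 was −1.87, −2.15 and −2.01 at 14 DPI and −2.79, −2.49 and −2.54 at 42 DPI, a difference of −0.60 (SE 0.15). miR-328-3p, one of the conserved brain miRNAs here, was −2.45, −3.16 and −3.0 against −4.42, −3.43 and −3.85 (−1.03, SE 0.33). The group is completed by miR-344i (−0.40), miR-296-5p (−0.68), miR-320-3p (−0.42), miR-7671-3p (−0.49) and miR-3620-3p (−0.93). The last 2 and miR-344i lay at or near the floor on some arrays, which limits the difference that could be measured. Over all 12 the adjusted p in limma ran from 0.127 to 0.350, and the differences without 14 DPI replicate 1 were −0.38 to −1.05. The 12 were chosen for groups that do not overlap, so omitting an array cannot reverse them, and their separation is no finding. Their unscaled intensity at 42 DPI was 0.847 to 1.6 times that at 14 DPI, with a median of 1.13.

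**Figure D2:**
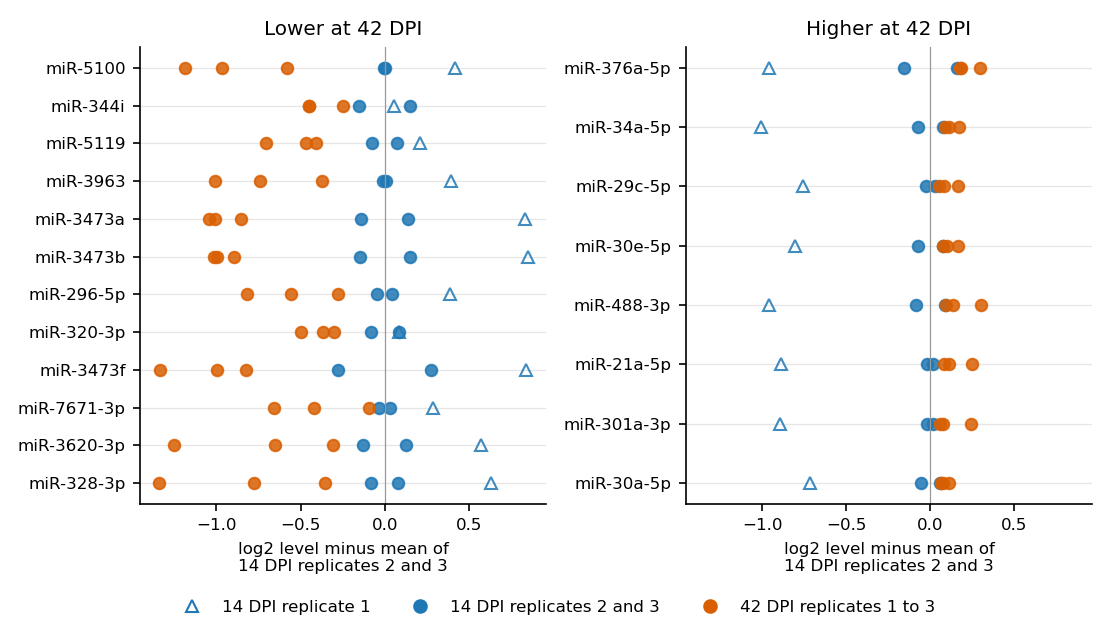
Log2 level of each array minus the mean of 14 DPI replicates 2 and 3, for the 12 miRNAs of lowest p among those lower (left) and the 8 among those higher (right) at 42 DPI with groups that do not overlap. Triangles are 14 DPI replicate 1, blue points its other replicates, orange points 42 DPI. On the right the triangle is the lowest point for all 8 miRNAs, and the other arrays lie close together.

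The order of these levels followed array brightness within groups too. Among the 52 miRNAs with an unadjusted p under 0.05 on the lower side, the dimmest of the 6 arrays (14 DPI replicate 1) was the highest and the brightest (42 DPI replicate 1) the lowest for 47 (90.4%). Over all 485 that held for 178 (36.7%). Within 42 DPI alone, the dimmest array was highest and the brightest lowest for 43 of the 52 (82.7%), and for 29.5% of all 485. The 52 were chosen on the same contrast, so these counts are a description. For miR-3473b, miR-3473a and miR-3473f the SD within 42 DPI was 0.06, 0.10 and 0.26 (n = 3), beside a median of 0.10 over all tested. The part of brightness in these differences was not tested.

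The miR-466, miR-467 and miR-669 names formed the list with the lowest median. They belong by name to the cluster within Sfmbt2, which is highly expressed in placenta and trophoblast. The 4 tested members with a RefSeq position did not lie on that chromosome, miR-466q and miR-669n being on chr3, miR-467f on chr11 and miR-466i-3p on chr13. Of 60 names on the array 12 were tested and 10 were detected on all 6 arrays. None was called, 9 of 12 had an unadjusted p under 0.05 and were lower, beside 10.7% of all tested, and 11 were lower without overlap, beside 29.3% of all tested miRNAs. The median difference was −1.48, that is −1.36 relative to all tested, and −0.76 relative to all tested without 14 DPI replicate 1. miR-669p-3p was 0.01, −1.81 and −1.91 at 14 DPI against −3.20, −2.33 and −2.66 at 42 DPI (−1.49, SE 0.53, interval −2.70 to −0.29, limma adjusted p = 0.350). miR-466i-5p was −0.13, −1.48 and −1.44 against −2.41, −1.61 and −2.08 (−1.02, SE 0.40). In both, 14 DPI replicate 1 was far above its own group, and the brightest array of 42 DPI was the lowest.

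Within that list the members differed. Among the names chosen here after their values were seen, miR-466i-3p (−1.54), miR-467f (−1.50) and miR-466q (−1.50) had nearly equal differences, and they share the run ACACACACACA. That run was held by 3 of the 418 tested miRNAs with a sequence and by 3 of 1679 mature sequences (0.179%), searched on the strand of the miRNA. miR-669n, which lacks the run, differed by −0.21 (interval −0.60 to 0.19) and miR-467b-5p by 0.01 (interval −0.38 to 0.39). Neither was detected on all 6 arrays. The lowest mean level of the list at 14 DPI was −5.07, near the floor of −5.35, where a large fall cannot be measured. miR-466f-3p (−1.57) and miR-466h-3p (−1.51) fell as much but, like miR-467b-5p, had no matched sequence. Whether the difference goes with the run was not tested. In scanner units the summed intensity of the list was 2765, 1794 and 1693 at 14 DPI and 2105, 1645 and 1746 at 42 DPI. These sums overlap. Of the 12 members 2 were brighter on every 42 DPI array, beside 49.7% of all tested. Another 3 were dimmer on every one, and these were all 3 such miRNAs among the 485 tested (0.619%).

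Late-named miRNAs made up much of the lower side. Of 936 names from miR-3000 upward, most of them annotated from deep sequencing, 16.6% were tested. Of all 485 tested 267 were below 0 and 215 above, and of the late names tested 148 were below 0 (95.5%) and 5 above. Their median was −0.68, and −0.28 without 14 DPI replicate 1. Of those tested, 25 had an unadjusted p under 0.05 and were lower (16.1%, beside 10.7% of all tested). For 81 of those tested (52.3%, beside 29.3% of all tested) the groups did not overlap and 42 DPI was lower. In scanner units 21 were brighter on every 42 DPI array (13.5%, beside 49.7% of all tested). The 330 tested miRNAs with older names had a median of 0.12. Of these 61 were lower without overlap and 10 higher, beside 29.3% and 2.06% of all tested. The 10 were all the higher ones among the 485. The mirtron-like 5p arms from miR-6896 to miR-7094 were all below 0 (42 of 42, median −0.78), with 23 lower without overlap. The 3p arms in the same range of names were below 0 too (11 of 11, median −0.43), with 7 lower without overlap, both counts beside 29.3% of all tested. The 5p and 3p arms were not matched by hairpin. Without 14 DPI replicate 1 the medians were −0.24 and −0.23.

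Single members show that the shift rested on that array to different degrees. miR-7042-5p was 1.93, −0.01 and −0.52 at 14 DPI against −0.43, 0.02 and −0.68 at 42 DPI (−0.83, interval −2.44 to 0.79), so its other arrays overlapped. miR-7047-5p was 1.57, 0.14 and −0.02 against −0.82, −0.23 and −0.59 (−1.11, interval −2.15 to −0.07), and stayed lower without that array (−0.61). Of the 3p arms, miR-7022-3p was −3.58, −4.28 and −4.05 against −5.35, −4.42 and −4.80 (−0.89), and 1 of its values at 42 DPI was at the floor. Both mirtron-like lists had more signal at 42 DPI in scanner units at the median, by 0.27 and 0.18 on the log2 scale, against 0.87 for all tested miRNAs.

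The direction of the difference went with base composition. Across the 418 tested miRNAs with a sequence, Pearson r between GC content and the difference was −0.56 and Spearman rho −0.62. It was −0.58 and −0.61 without scaling, and −0.32 and −0.42 without 14 DPI replicate 1. The points share the same 6 arrays and are not independent. For the 139 miRNAs of lowest GC content (27.3 to 45.5%) the median difference was 0.27, and 14 were lower without overlap (10.1%). For those of highest GC content (60 to 100%) the median was −0.65, with 73 lower (53.3%) and 0 higher without overlap. Over all tested miRNAs 29.3% were lower and 2.06% higher in this sense. Without 14 DPI replicate 1 the medians were 0.01 and −0.30. In scanner units the medians of these 2 sets were 1.35 and 0.31, both positive. The 12 miRNAs of lowest p on the lower side had a median GC content of 62.5% (10 with a sequence), and the 8 on the higher side 41.9%. miR-466i-3p, miR-467f and miR-466q ran against this relation, with a GC content of 36.4, 38.1 and 50%. With miR-669n, the median GC content over the 4 members of that list with a sequence was 39.0%.

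**Figure D3:**
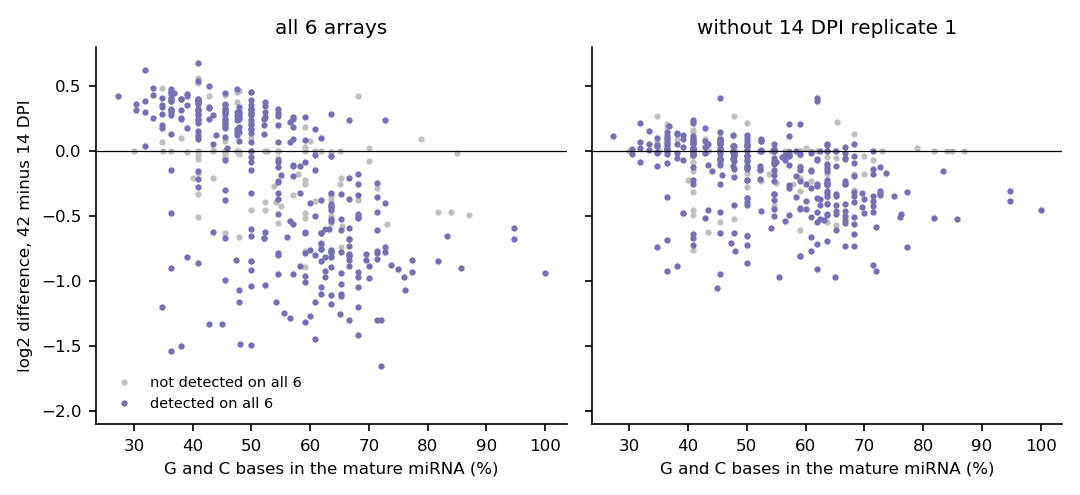
Log2 difference between 42 and 14 DPI against the GC content of the mature sequence (%), 1 point per miRNA with a RefSeq sequence (418), for all 6 arrays (left, r = −0.56) and without 14 DPI replicate 1 (right, r = −0.32). Purple points were detected on all 6 arrays.

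On the higher side, the 8 miRNAs described were chosen for groups that do not overlap and detection on all 6 arrays, so their separation is no finding. For all 8 the lowest array was 14 DPI replicate 1. miR-34a-5p, a p53 target that restrains the cell cycle, was 0.83, 1.76 and 1.91 at 14 DPI and 2.00, 1.94 and 1.92 at 42 DPI. The difference was 0.46 (SE 0.27, interval −0.15 to 1.06, limma adjusted p = 0.446), and 0.12 without 14 DPI replicate 1. miR-21a-5p, which is induced in reactive glia and myeloid cells, was −0.72, 0.19 and 0.15 against 0.42, 0.28 and 0.25 (0.44, SE 0.29; 0.15 without that array). miR-376a-5p of the Dlk1-Dio3 cluster was −4.69, −3.89 and −3.57 against −3.44, −3.56 and −3.55 (0.54, SE 0.27). The others were miR-488-3p (0.50), miR-301a-3p (0.42), miR-30e-5p (0.38), miR-29c-5p (0.35) and miR-30a-5p (0.32). Without 14 DPI replicate 1 the 8 differences ran from 0.08 to 0.22. In scanner units the 8 were 2.48 to 2.80 times brighter at 42 DPI, beside a median of 1.84 for all tested.

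The 2 miRNAs that passed before adjustment on the higher side were dim and lay outside the rule for named miRNAs, and they are given for that count. In limma, miR-379-3p, also of the Dlk1-Dio3 cluster, was −5.35, −4.96 and −5.11 at 14 DPI against −4.68, −4.92 and −4.88 at 42 DPI (0.31, adjusted p = 0.350). miR-148b-3p was −5.35, −4.53 and −4.17 against −3.96, −4.28 and −4.12 (0.56, limma adjusted p = 0.419). Each was at the floor on 14 DPI replicate 1. On the other arrays miR-148b-3p overlapped between the groups.

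Brain miRNA families sat slightly above the median of all tested, and this narrowed when 14 DPI replicate 1 was left out. All 9 let-7 and miR-98 5p arms detected on all 6 arrays had a difference above 0. let-7c-5p was 3.44, 4.30 and 4.51 at 14 DPI and 4.46, 4.40 and 4.37 at 42 DPI (0.32, interval −0.29 to 0.94), and 0.00 without that array. let-7b-5p was alike (0.30, and −0.01 without that array). Of 3 tested 3p arms 2 were lower and 1 was at the floor, and let-7b-3p (−0.92, interval −1.78 to −0.06) and let-7f-1-3p (−0.86) are named here after their values were seen. In unscaled intensity both arms were higher, let-7b-5p from 13383 to 31897 and let-7b-3p from 65.1 to 70.8. Both 3p arms were at the floor on 42 DPI replicate 1.

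The remaining conserved families had medians from 0.07 to 0.52, apart from miR-99, miR-100 and miR-125 at −0.04. Without 14 DPI replicate 1 these medians ran from −0.17 (miR-181) to 0.14 (miR-148 and miR-152), beside −0.08 for all tested, and those of miR-221 and miR-222, miR-26, the miR-17-92 group, and miR-15, miR-16, miR-103 and miR-107 were also below 0. The miR-29 family, known for targeting collagens, had 5 of 5 members above 0 (median 0.31), with miR-29a-3p at 3.42, 3.99 and 4.25 against 4.14, 4.02 and 4.22. For miR-29a-3p the difference was 0.24 (interval −0.23 to 0.71). For miR-29b-3p it was 0.35 (interval −0.31 to 1.02). The miR-30 family (median 0.27) included miR-30a-5p and miR-30e-5p, which share a seed with miR-30c-5p (0.27). miR-24-3p (0.29) and miR-23b-3p (0.25) of the miR-23, miR-27 and miR-24 group, miR-103-3p (0.29) and miR-107-3p (0.27), and miR-19b-3p (0.36) and miR-106b-5p (0.33) of the miR-17-92 group all overlapped between the groups. So did miR-34b-5p (0.44), miR-221-3p (0.30), miR-222-3p (0.13), miR-26a-5p (0.10), miR-26b-5p (0.26), miR-181a-5p (0.07) and miR-181b-5p (0.02).

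miR-125a-5p and miR-125b-5p share their seed and differed in sign. miR-125a-5p was 0.74, 0.75 and 0.93 at 14 DPI and 0.40, 0.50 and 0.55 at 42 DPI, lower without overlap (−0.33, interval −0.64 to −0.01, limma adjusted p = 0.419). miR-125b-5p was 3.19, 3.71 and 3.82 against 3.65, 3.67 and 3.62 (0.07, interval −0.27 to 0.41). Leaving out 14 DPI replicate 1 gave −0.36 and −0.12. In scanner units both were brighter at 42 DPI, miR-125a-5p from 1694 to 2846 and miR-125b-5p from 12151 to 25776. The difference between the pair was not tested.

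The Dlk1-Dio3 cluster, which encodes many neuronal miRNAs, had 49 tested members. Of these 43 were above 0 and 6 below, with a median of 0.28. Groups did not overlap for 2 higher and 2 lower members, beside 2.06% and 29.3% of all tested, and without 14 DPI replicate 1 the median was 0.01. miR-434-3p was 0.58, 1.15 and 1.12 against 1.08, 1.26 and 1.22 (0.24, interval −0.20 to 0.68). miR-494-3p varied most among its named members, at 5.47, 3.22 and 3.52 at 14 DPI against 3.36, 4.27 and 3.69 at 42 DPI. Its difference was −0.30 (interval −1.68 to 1.09) and turned to 0.40 without 14 DPI replicate 1.

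**Figure D4:**
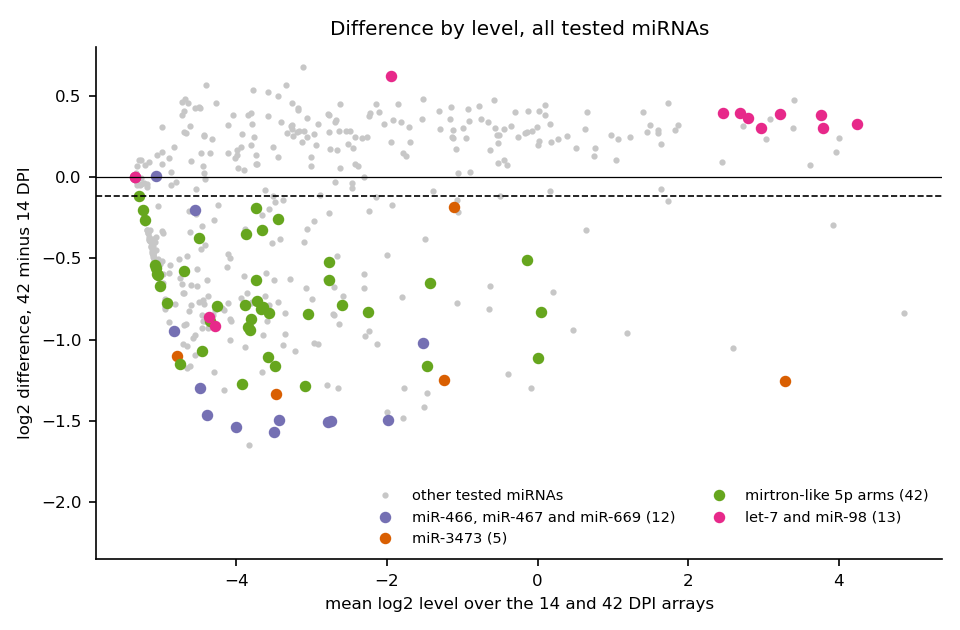
Log2 difference (42 minus 14 DPI) against the mean log2 level of both groups for 485 miRNAs. The dashed line is the median of all tested (−0.11). The miR-466, miR-467 and miR-669 names and the miR-3473 names lie mostly below −1, the mirtron-like 5p arms all lie below 0, and the let-7 5p arms above the floor lie above 0.

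Markers of the cells these vesicles were taken from, and of other brain cells, were read from 6 lists. Of 8 names enriched in microglia and myeloid cells, 5 were tested, and all 5 were above 0 (median 0.40, and 0.15 without 14 DPI replicate 1). miR-223-3p, a myeloid marker, was detected on all 6 arrays at −4.25, −4.04 and −3.93 against −4.05, −3.77 and −4.05. miR-142a-3p, a marker of hematopoietic cells and microglia, was detected on 2 arrays of 14 DPI and on 3 of 42 DPI, at −5.35, −4.97 and −4.45 against −4.54, −4.28 and −4.50. miR-146b-5p was −4.64, −3.73 and −3.62 against −3.47, −3.65 and −3.69 (0.40, interval −0.30 to 1.10). miR-142a-5p and miR-223-5p were not well above background on any of the 6 arrays, and miR-155-5p was detected on 1, at 42 DPI. The summed intensity of the list was 437 to 1591 units at 14 DPI and 2054 to 4670 at 42 DPI. Fewer vesicles of a source and less RNA in each cannot be told apart in such samples.

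Neuronal miRNAs were present in every sample. Of 25 neuron-enriched names 19 were tested, with a median difference of 0.18 (−0.07 without 14 DPI replicate 1). No member separated the groups, whereas 29.3% of all tested were lower and 2.06% higher without overlap. miR-128-3p was 2.47, 3.33 and 3.72 against 3.83, 3.42 and 3.68 (0.47, interval −0.16 to 1.11). miR-9-3p was 2.77, 3.50 and 3.45 against 3.62, 3.56 and 3.44 (0.30, interval −0.33 to 0.93). Their summed intensity was 14317 to 51580 units at 14 DPI and 56212 to 135115 at 42 DPI. Of 6 oligodendrocyte-enriched names 4 were tested, all above 0 (median 0.37, and 0.08 without that array). miR-338-3p was 0.58, 1.54 and 1.46 against 1.70, 1.54 and 1.55, and miR-219a-5p was −1.05, −0.47 and 0.00 against −0.25, −0.15 and 0.10. Both overlapped between groups.

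Vascular markers had intervals that span 0, with miR-126a-3p differing by 0.18 (interval −0.35 to 0.71) and miR-143-3p by 0.29 (interval −0.48 to 1.07). Of 9 tested epithelial and choroid plexus names 7 were below 0, with a median of −0.15, and −0.53 without 14 DPI replicate 1. They include miR-200b-3p, miR-200c-3p and miR-429-3p, which share a seed and were all below 0 (median −0.21, and −0.67 without that array). In the same list miR-204-5p was −0.34, 0.36 and 0.18 against 0.36, 0.32 and 0.17, whereas miR-211-3p was 0.40, −1.74 and −2.05 against −2.50, −2.34 and −2.43 (−1.30, interval −2.70 to 0.10). miR-204-5p is the abundant miRNA of the choroid plexus. Of 6 erythroid names 1 was tested, with a difference of −0.35. The part of any of these cell types in the other results was not tested.

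**Figure D5:**
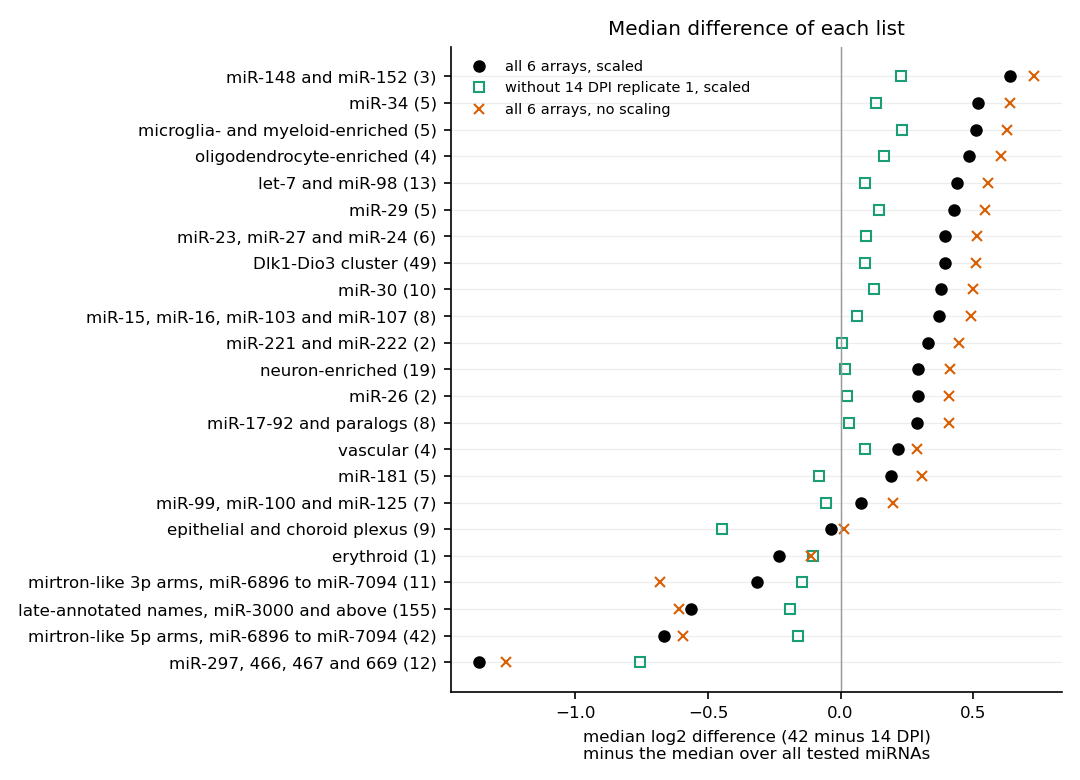
Median log2 difference (42 minus 14 DPI) of each list minus the median over all tested miRNAs, with the number tested in brackets. Black points are all 6 arrays, green squares omit 14 DPI replicate 1, and orange crosses use intensities without scaling. The lists above 0 move to between −0.08 and 0.23 without that array, and the miR-297, miR-466, miR-467 and miR-669 names stay lowest (−0.76).

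Detection was wider at 42 DPI. Of the 1881 miRNAs 366 were detected on all 6 arrays and 1284 on none. Another 108 were detected on all arrays of 42 DPI and on some of 14 DPI, while 1 had the reverse. 9 were detected on all arrays of 42 DPI and on none of 14 DPI, namely miR-211-5p, miR-145a-5p, let-7e-3p, miR-203-3p, miR-744-3p, miR-325-3p, miR-204-3p, miR-137-5p and miR-431-3p. The last 3 are named for the count alone. After scaling, the 42 DPI level of each was below the limit that the dimmer 14 DPI arrays could have shown, so no fold can be given for any of the 9. The intensity of miR-203-3p was 3.59, 16.6 and 17.5 units at 14 DPI and 51.1, 21.7 and 28.6 at 42 DPI. That of miR-211-5p was 15.0, 33.0 and 27.5 against 62.3, 36.8 and 40.8.

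The error allowed differences of more than 2-fold to be bounded for part of the miRNAs. The median half-width of the 95% interval was 0.67 on the log2 scale. For 43.7% of the 485 the whole interval lay between −1 and 1. That share includes dim miRNAs with values set to the floor, which narrows an interval without bounding the difference. Among the 366 detected on all 6 arrays the interval lay between −1 and 1 for 139, so a 2-fold difference lay outside it. Of the abundant miRNAs these 139 included miR-125b-5p, let-7c-5p and miR-29a-3p. A mean difference over 2-fold was measured for 47 miRNAs, all lower, and for 1 without 14 DPI replicate 1. Spots of miR-124-3p were left out, because all 30 of them in each file of 14 and 42 DPI carry scan positions that belong to another array.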

How the data were processed

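RNA of microglial exosomes, carrying a cyanine dye, was read on 1-color Agilent arrays for mouse miRNAs. The authors deposited an intensity per spot, background-corrected by Agilent Feature Extraction 10.7.1.1 and not scaled between arrays, and a table of processed values on a log2 scale, whose scaling and centering are not given in the sources used here. In that table higher is brighter, each column has a median of −3.32, and rank correlations with the summed probes were 0.940 to 0.986. Control and outlier spots were left out, spots averaged per probe, probes summed per miRNA, and arrays divided by their 75th percentile over 230 miRNAs detected on all 12 arrays. A miRNA was detected where over 0.5 of the kept spots of a probe were well above background. Values below the floor of −5.35 (log2) were set to it. limma 3.58.1 (R 4.3.3) fitted 12 arrays in 4 groups, two-sided, with Benjamini-Hochberg adjustment over 485 miRNAs. Other steps used Python 3.11.15, NumPy 2.4.6, pandas 2.3.3, SciPy 1.17.1 and matplotlib 3.10.9. On simulated data, 80.9% of 162 miRNAs given a log2 change of 1.5 were recovered, with 6.43% of calls false. The simulated noise was independent between miRNAs and of equal spread on all arrays, whereas 14 DPI replicate 1 stood apart in the data. These shares therefore do not give the power of this contrast.

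miRNAs named are, among those detected on all 6 arrays with groups that do not overlap, up to 12 of lowest p in each direction, the 2 of highest level in each list, and up to 6 detected in 1 group alone. Members and lists were chosen with earlier results of these data known. No spot was saturated (0 on the 6 arrays). miR-467a-3p was kept out of the lists, as 2 spots are named differently on sham arrays. The alternatives were other probe summaries, background correction (normexp, offset 50), scalings, floors, filters, samples, blocks, array weights, tests, the authors' processed table, and omission of each array. A fit of 5 arrays without 14 DPI replicate 1 was added after seeing the data.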

Additional observations from a re-analysis of the deposited data

How the results depend on the processing

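The count of called miRNAs, 0 in limma with 54 at an unadjusted p under 0.05, was also 0 under 23 of 29 alternatives, with 9 to 89 at an unadjusted p under 0.05. It was 293 with normexp background correction (0 higher, 293 lower), 165 without scaling (165 higher, 0 lower), 15 from the authors' processed table (9 higher, 6 lower), and 8 with array weights, all lower: miR-3473a, miR-3473b, miR-3473e, miR-3473f, miR-5100, miR-5119, miR-690 and miR-6931-5p. The weight of 14 DPI replicate 1 was 0.083, the lowest of the 12. With single arrays omitted in turn the count was 0 to 1, miR-193a-3p (0.83, higher) without 14 DPI replicate 3 and miR-5100 (−1.22, lower) without 42 DPI replicate 2. With normexp miR-376a-5p reversed to −0.52. Of the 63 miRNAs named by rule, 15 changed sign without scaling and 11 without 14 DPI replicate 1. The cause of these changes was not tested. The median of all tested was −0.71 with normexp, which kept the scaling between arrays, and 0.87 without scaling. Its sign thus changed with the scaling, and its size also with the background correction.

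The replicate block left 0 calls (43 at an unadjusted p under 0.05, and 9 in the 6 arrays alone). Same-numbered samples of 14 and 42 DPI did not deviate together (r = −0.60, −0.65 and 0.21 across miRNAs), so the pairing is by number alone. The methods' t-test gave 24 miRNAs at their threshold of 0.05 and 4 at 0.01, and 0 after Benjamini-Hochberg adjustment. The number of arrays limits precision.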
